A study of Mus musculus with 2 samples.

Results

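Eicosanoids are signalling lipids made from arachidonic acid, and 10 genes of their synthesis, removal and sensing were described in microglia sorted from the sham-operated mouse brain. The genes were taken by name from the 53801 genes listed in each count file. They were the cyclooxygenases Ptgs1 and Ptgs2, the prostaglandin D synthase Hpgds, the prostaglandin-degrading enzyme Hpgd, the prostaglandin E2 receptors Ptger2 and Ptger4, and the leukotriene genes Alox5, Alox5ap, Lta4h and Ltc4s. All 10 had counts in both libraries and averaged 10 counts or more, the minimum used here for a ratio between libraries.

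The study concerned microglia and macrophages after ischemic stroke, and its RNA-seq compared microglia after middle cerebral artery occlusion (MCAO) with sham. The 2 sham libraries, each from 1 mouse, were analysed here, and the MCAO libraries were not analysed here. Both mice were Cx3cr1CreER/wt on a C57BL/6 background, so 1 Cx3cr1 allele carried a tamoxifen-inducible Cre recombinase, and these mice served as the wild-type control. They were labelled as males of 8 to 10 weeks, where the methods of the study give another age range and both sexes, and had received tamoxifen at 75 mg/kg per day for 4 days, with surgery 14 days after the first dose. Cells came from the left hemisphere 3 days after surgery, through a gate on CD11c–Ly6G–CD11b+CD45low events. That gate is meant to leave out CD11c+ cells, cells with high CD45 and cells with Ly6G, the marker by which the study identified neutrophils. Sham surgery is named in the sample titles, whereas the treatment field reads none. With 1 group and 2 libraries there was no comparison of conditions and no test. A ratio between the libraries describes how far 2 mice of the same group lay apart, including any technical difference between their libraries.

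Eicosanoid synthesis begins when a phospholipase or a lipase frees arachidonic acid from membrane lipids. In the prostaglandin branch a cyclooxygenase makes prostaglandin H2, and downstream synthases turn it into prostaglandin D2, prostaglandin E2, prostacyclin or thromboxane. In the leukotriene branch 5-lipoxygenase, helped by its activating protein, makes leukotriene A4, which one enzyme hydrolyses to the neutrophil attractant leukotriene B4 and another joins to glutathione to form the cysteinyl leukotrienes. Microglia are known as a source of cyclooxygenase products in the brain, and the inducible cyclooxygenase is a known target of inflammatory stimuli. Transcript counts show neither the activity of these enzymes nor the amounts of their products.

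Library 1 held 23381026 counts on genes and library 2 held 41142609, so counting error was smaller in library 2. Levels are given in CPM, the count of a gene over the library total times 1000000, where a pair of values stands for library 1 and then library 2, and a count of 0 allows up to 0.128 and 0.0729 CPM. The 10 microglia markers summed to 50350 and 49889 CPM. The 12 neutrophil markers summed to 4994 and 61372 CPM, and 11 of the 12 were past 2-fold higher in library 2. Among these, Ngp, a granule protein gene, stood at 749 and 16031 CPM and S100a8, a calprotectin subunit gene, at 1396 and 14266 CPM. The 8 basophil or mast cell markers summed to 36.6 and 383 CPM. Library 2 thus stood apart from library 1 in genes of basophils or mast cells and in those of neutrophils, which the gate was meant to leave out. The levels of the 10 genes are given below for each library as well as by their mean. Over the 14673 genes that averaged 10 counts or more, 9.51% were past 2-fold higher in library 2, 25.7% were past 2-fold lower and 35.2% were past 2-fold in either direction. Their median log2 ratio of library 2 over library 1 was −0.21. As edgeR's common dispersion, the spread between the libraries was a biological coefficient of variation of 0.479. Fewer cells of a type and less RNA per cell cannot be told apart in such bulk libraries.

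Nearly all cyclooxygenase transcript was Ptgs1, which encodes COX-1, the form known as constitutive. Ptgs1 (ENSMUSG00000047250, chr2:36230426-36252272 on the plus strand, GRCm38) had 28796 and 51043 counts, which is 1232 and 1241 CPM. Its mean was 1236 ± 6.39 CPM (SD, n = 2), and on this scale its level was nearly the same in both mice. With the libraries scaled by edgeR's TMM its log2 ratio was 0.26, and with DESeq2 size factors it was 0.29. In CPM the libraries were 1.01-fold apart, with an exact conditional 95% interval of 0.993 to 1.02 that covers counting error only, as do all intervals given here. Per length, as counts per base of merged exon scaled to the same sum (TPM), Ptgs1 stood at 902 and 732. Its mean TPM of 817 ± 120 (SD, n = 2) was at the 99.0th percentile of 12194 protein-coding genes with the minimum count.

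Ptgs2, which encodes the inducible COX-2, was low in both libraries. Ptgs2 (ENSMUSG00000032487, chr1:150100031-150108227, plus strand) had 157 and 350 counts, or 6.71 and 8.51 CPM, with a mean of 7.61 ± 1.27 CPM (SD, n = 2). The ratio was 1.27-fold, with an interval of 1.05 to 1.54. Per length it stood at 4.17 and 4.26 TPM, a mean at the 30.0th percentile of the same protein-coding genes. The level of Ptgs1 per length was 216 times that of Ptgs2 in library 1 and 172 times in library 2. With the longest transcript as the length of each gene, these ratios were 285 and 227.

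Early response genes, with which Ptgs2 is often grouped, are known to respond to cell isolation. Here 12 of them summed to 17214 and 21343 CPM. Of the 12, 2 were past 2-fold higher in library 2 and 2 lower, beside 9.51% and 25.7% of all genes. The median log2 ratio of the 12 was −0.01. Without its most abundant gene, the log2 ratio of the sum was 0.09 in place of 0.31. The part of cell isolation in the level of Ptgs2 was not tested. Platelets are another known site of Ptgs1 expression. The 6 platelet markers summed to 45.1 and 61.6 CPM, of which Gp9 made up 43.6 and 60.6 CPM, and Gp6 was at 0 in both libraries. The part of platelet RNA in the level of Ptgs1, at 1232 and 1241 CPM, was not tested.

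The RefSeq promoter table (GRCm38.p6) held 9 of the 10 genes, with Alox5ap not among them. The window shown here runs from 250 bases before the RefSeq start to 30 bases after it. Both cyclooxygenase promoters are printed because the levels of these enzymes for the same step lay so far apart. Capitals mark matches, on either strand, to 7 short motifs that were searched. These were a TATA box (TATAAA), an E-box (CACGTG), the core of a cyclic AMP response element or CRE (ACGTCA), a palindromic C/EBP motif (TTGCGCAA), a GC box (GGGCGG), an AP-1 site (TGACTCA) and a PU.1 core (GAGGAAG).
Ptgs1: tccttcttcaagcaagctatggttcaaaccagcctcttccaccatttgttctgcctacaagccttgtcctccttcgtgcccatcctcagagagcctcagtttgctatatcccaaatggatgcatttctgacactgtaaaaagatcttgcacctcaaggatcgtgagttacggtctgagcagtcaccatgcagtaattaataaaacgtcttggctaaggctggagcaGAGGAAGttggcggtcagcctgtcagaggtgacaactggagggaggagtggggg
Ptgs2: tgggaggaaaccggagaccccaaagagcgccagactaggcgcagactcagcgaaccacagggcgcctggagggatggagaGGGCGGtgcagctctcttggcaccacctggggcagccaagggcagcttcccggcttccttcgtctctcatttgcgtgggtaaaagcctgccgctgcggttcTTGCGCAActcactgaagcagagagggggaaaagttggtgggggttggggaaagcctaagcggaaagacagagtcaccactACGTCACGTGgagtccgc

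The Ptgs1 window (chr2:36230176-36230455, plus strand) held a single match, the PU.1 core, from position −24 to −18 counted from the start. Of all 32817 promoters of the same length, 12.2% held this motif, and so did 3 of the 9 genes, Ptgs1, Hpgds and Ltc4s. The Ptgs2 window (chr1:150099781-150100060, plus strand) held a GC box, the C/EBP palindrome from −69 to −62, and a CRE core at 13 to 18 that overlapped an E-box at 17 to 22 after the start. The C/EBP palindrome was found in 0.180% of all promoters, the CRE core in 7.25% and the E-box in 6.79%. The Ptgs2 window had 61.4% GC and 16 CpG dinucleotides, the Ptgs1 window 49.6% GC and 5 CpG, and the median over all promoters was 52.5% GC and 6 CpG. A match describes letters in the window and is not evidence of binding. Positions are counted from the RefSeq start, and where transcription starts in these cells was not examined.

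**Figure D1:**
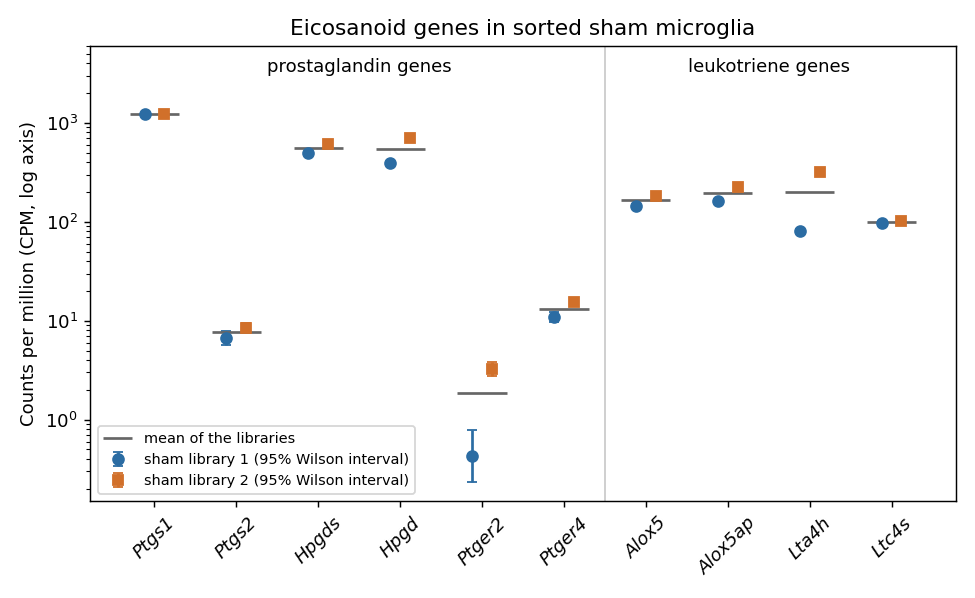
Levels of the 10 genes in CPM on a log axis, with circles for sham library 1 and squares for sham library 2, bars for 95% Wilson intervals of counting error, and horizontal lines for the mean of both. Ptgs1 stood near 1236 CPM in both libraries and Ptgs2 at 6.71 and 8.51 CPM, while Lta4h and Ptger2 show the widest gaps between the libraries.

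Downstream of prostaglandin H2, the synthase transcript for prostaglandin D2 was mainly Hpgds. Hpgds, the hematopoietic prostaglandin D synthase (ENSMUSG00000029919, chr6:65117293-65144908, minus strand), had 11618 and 25232 counts, which is 497 and 613 CPM. The mean was 555 ± 82.3 CPM (SD, n = 2) and the ratio 1.23-fold, with an interval of 1.21 to 1.26. Per length the libraries stood at 220.0 and 219 TPM, so on that scale alone they nearly coincided. With TMM scaling the log2 ratio of Hpgds was 0.55, and with DESeq2 size factors it was 0.58. Ptgds, the brain or lipocalin-type synthase of the same product, had 114 and 491 counts, or 4.88 and 11.9 CPM. The level of Hpgds per length was 26.2 times that of Ptgds in library 1 and 13.2 times in library 2.

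Mast cells are known for Hpgds, and of the 8 basophil or mast cell markers, Prss34, Mcpt8, Ms4a2 and Cma1 had 0 counts in library 1 and 4743, 1484, 99 and 46 counts in library 2. Hdc, histidine decarboxylase, stood at 36.2 and 219 CPM and the protease gene Prss34 at 0 and 115 CPM. All 8 markers were past 2-fold higher in library 2, beside 9.51% of all genes. All but Hdc passed the minimum count through library 2 alone. The summed list was 10.5-fold higher, and most of its library 1 sum was Hdc. Without Hdc, its most abundant gene, the log2 ratio of the sum was 8.59 in place of 3.39, on few counts in library 1. The part of basophil or mast cell RNA in the level of Hpgds was not tested.

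Of the other prostanoid synthases, 7 of 8 averaged 10 counts or more, and 2 were past 2-fold higher in library 2, none lower, against 9.51% and 25.7% of all genes. The median log2 ratio of the 7 was 0.38. Tbxas1, thromboxane A synthase, stood at 403 and 478 CPM, and per length it stood at 0.573 and 0.551 of the level of Hpgds. The prostaglandin E synthases differed by form. Ptges3, the cytosolic form that is also an HSP90 co-chaperone, stood at 136 and 92.1 CPM, and the membrane-associated Ptges2 at 45.7 and 30.7 CPM. Ptges, the inducible microsomal form known to work with COX-2, had 2 counts in library 1 and 102 in library 2, through which alone it passed the minimum. Its ratio in CPM from these counts was 29.0 with an interval of 7.82 to 243. With the 2 counts set to the floor of 3, as for the 2-fold call, it was 19.3, which is a bound. The aldose reductase Akr1b3, which can make prostaglandin F2α, stood at 98.1 and 127 CPM. Cbr1, a carbonyl reductase that acts on prostaglandin E2, stood at 39.7 and 66.1 CPM. Ptgds, at 2.45-fold with an interval of 1.99 to 3.03, was the other one past 2-fold. Ptgis, prostacyclin synthase, had 0 and 15 counts and fell under the minimum.

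Hpgd, which encodes 15-hydroxyprostaglandin dehydrogenase, the first enzyme of prostaglandin breakdown, stood in the same range per length as Ptgs1. Hpgd (ENSMUSG00000031613, chr8:56294585-56321043, plus strand) had 9234 and 28970 counts, which is 395 and 704 CPM. Its mean was 549.5 ± 219 CPM (SD, n = 2) and its ratio 1.78-fold, with an interval of 1.74 to 1.83, so it lay under the 2-fold limit on this scale. With scaling by edgeR's TMM, which moved the median log2 ratio of all genes from −0.21 to 0.04, its log2 ratio was 1.08, and with DESeq2 size factors it was 1.11, both past 2-fold. Per length, Hpgd stood at 667 and 959 TPM, and its range over the libraries overlapped that of Ptgs1. The level of Hpgds was 0.330 of that of Hpgd in library 1 and 0.228 in library 2.

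Among the 5 other genes of prostaglandin transport and inactivation, the exporters were lower in library 2. The multidrug transporter Abcc1, which exports leukotriene C4, stood at 54.2 and 7.49 CPM, a ratio of 0.138 with an interval of 0.122 to 0.157. Abcc4, an exporter of prostaglandins, had 327 and 141 counts, a ratio of 0.245 with an interval of 0.200 to 0.299. These were 2 of the 4 genes that averaged 10 counts or more, against 25.7% of all genes past 2-fold lower. The prostaglandin reductases Ptgr1, at 14.8 and 23.1 CPM, and Ptgr2, at 25.9 and 37.4 CPM, lay within 2-fold. Slco2a1, the prostaglandin uptake carrier that brings its substrate to Hpgd in other tissues, had 0 counts in both libraries.

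Both prostaglandin E2 receptors of the set signal through cyclic AMP, and per length their levels lay at the 32.7th (Ptger4) and 11.0th (Ptger2) percentile of protein-coding genes. Ptger4, the EP4 receptor (ENSMUSG00000039942, chr15:5206661-5244187, minus strand), had 255 and 633 counts, or 10.9 and 15.4 CPM. The mean was 13.1 ± 3.17 CPM (SD, n = 2) and the ratio 1.41-fold, with an interval of 1.22 to 1.64. Ptger2, the EP2 receptor (ENSMUSG00000037759, chr14:44988195-45003820, plus strand), had 10 and 134 counts, which is 0.428 CPM (Wilson 95% interval 0.232 to 0.787) and 3.26 CPM (2.75 to 3.86). Its mean was 1.84 ± 2.00 CPM (SD, n = 2), with an SD larger than the mean. Library 2 was the higher by 7.62-fold, with an interval of 4.01 to 16.2, the widest gap of the 10 genes, and it rests on 10 counts in library 1. Per length, Ptger4 stood at 19.9 times Ptger2 in library 1 and at 3.69 times in library 2.

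Of the other 14 eicosanoid receptors, 7 averaged 10 counts or more, and 3 of them were past 2-fold higher in library 2 and 0 lower, beside 9.51% and 25.7% of all genes, with a median log2 ratio of 0.35. Cysltr1, the first receptor for cysteinyl leukotrienes, stood at 128 and 163 CPM, 1.27-fold apart, and at 70.9 and 72.8 TPM. Ltb4r1, the high-affinity leukotriene B4 receptor that neutrophils carry, stood at 17.3 and 137 CPM, a ratio of 7.93 with an interval of 7.16 to 8.79. On the scale of TPM, Ltb4r1 was below Cysltr1 in library 1 at 35.3 and above it in library 2 at 225. Fpr2, a formyl peptide receptor that also binds lipoxin A4 and is found on neutrophils, stood at 3.89 and 40.5 CPM, a ratio of 10.4 with an interval of 8.42 to 12.99. Ptgir, the prostacyclin receptor, had 50 and 431 counts, a ratio of 4.90 with an interval of 3.65 to 6.70. Cmklr1, a chemerin receptor that also binds resolvin E1, stood at 101 and 71.6 CPM, and Ptger3, the EP3 receptor, at 13.1 and 14.8 CPM. Ptgfr, the prostaglandin F receptor, and Oxgr1, a proposed leukotriene E4 receptor, had 0 counts in both libraries. The 3 higher receptors moved with the neutrophil markers, which were 12.3-fold higher as a sum in library 2, and the part of neutrophil RNA in them was not tested.

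Transcripts of the leukotriene branch were counted in both libraries from its first enzyme to those of both products. Alox5, which encodes 5-lipoxygenase (ENSMUSG00000025701, chr6:116410077-116461178, minus strand), had 3417 and 7517 counts, or 146 and 183 CPM, with a mean of 164 ± 25.9 CPM (SD, n = 2). Its ratio was 1.25-fold, with an interval of 1.20 to 1.30. Alox5ap, the 5-lipoxygenase activating protein FLAP that presents arachidonic acid to the enzyme (ENSMUSG00000060063, chr5:149264767-149288153, plus strand), had 3818 and 9253 counts, or 163 and 225 CPM. Its mean was 194 ± 43.6 CPM (SD, n = 2) and its ratio 1.38-fold, with an interval of 1.33 to 1.43. Per length, Alox5ap stood at 3.23 times Alox5 in library 1 and at 3.56 times in library 2, so the relation of the enzyme to its helper was nearly the same in both.

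Lta4h and Ltc4s, whose enzymes draw on the same leukotriene A4, stood in a different proportion in each library. Ltc4s, leukotriene C4 synthase (ENSMUSG00000020377, chr11:50236461-50238616, minus strand), had 2274 and 4190 counts, or 97.3 and 101.8 CPM. Its mean was 99.5 ± 3.24 CPM (SD, n = 2) and its ratio 1.05-fold, with an interval of 0.995 to 1.10. Lta4h, leukotriene A4 hydrolase (ENSMUSG00000015889, chr10:93453411-93484875, plus strand), had 1874 and 13234 counts, or 80.2 and 322 CPM. Its mean was 201 ± 171 CPM (SD, n = 2) and its ratio 4.01-fold, with an interval of 3.82 to 4.21. On the scale of TPM, Lta4h stood at 0.137 of Ltc4s in library 1 and at 0.525 in library 2. Alox5 stood at 2.71 times Lta4h in library 1 and at 0.844 times in library 2, so their order turned between the libraries.

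Leukotriene B4 synthesis is a known property of neutrophils. The neutrophil list was 12.3-fold higher in library 2 as a sum, Lta4h 4.01-fold, Alox5 1.25-fold and Alox5ap 1.38-fold. Csf3r, the receptor for granulocyte colony-stimulating factor, was the only gene among the 12 neutrophil markers not past 2-fold higher in library 2, at 517 and 354 CPM. Lta4h stood at 80.2 CPM in library 1, where the neutrophil list summed to 4994 CPM. Leaving the neutrophil marker genes out of the totals shifts every log2 ratio equally and takes no neutrophil RNA out of other genes. The members' median log2 ratio was then 0.49 in place of 0.40, and 2 were past 2-fold as before. The part of neutrophil RNA in the levels of these genes was not tested.

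Windows of the same kind are printed for Lta4h and Ptger2, the pair of genes past 2-fold between the libraries, and no capitals stand in them because neither held any of the 7 motifs.
Lta4h: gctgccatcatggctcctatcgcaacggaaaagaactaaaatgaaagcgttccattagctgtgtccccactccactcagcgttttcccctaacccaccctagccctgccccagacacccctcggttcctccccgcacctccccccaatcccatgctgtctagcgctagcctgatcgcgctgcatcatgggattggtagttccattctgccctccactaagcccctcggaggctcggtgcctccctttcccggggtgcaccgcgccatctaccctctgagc
Ptger2: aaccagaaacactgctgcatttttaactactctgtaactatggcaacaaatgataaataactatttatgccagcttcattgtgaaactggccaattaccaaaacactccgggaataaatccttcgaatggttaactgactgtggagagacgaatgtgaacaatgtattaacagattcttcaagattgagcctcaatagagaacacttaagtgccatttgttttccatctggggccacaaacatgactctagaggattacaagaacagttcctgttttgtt

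The Lta4h window (chr10:93453146-93453425, plus strand) had 60.0% GC and 14 CpG. The Ptger2 window (chr14:44987861-44988140, plus strand) had 37.9% GC and 3 CpG, the fewest of the 9 genes, and its RefSeq start at position 44988111 lies before the gene start in the count files. The RefSeq starts of Lta4h (93453396) and Hpgd (56294552) also lie before those gene starts, at 93453411 and 56294585. On the minus strand, those of Hpgds (65144730) and Ltc4s (50238532) lie inside the counted gene, which starts at 65144908 and 50238616. For Ptgs1, Ptgs2, Alox5 and Ptger4 the starts were equal. The Ptger4 window held 4 GC boxes and 22 CpG, the most of the 9. A GC box was found in 34.7% of all promoters and in 4 of the 9 genes, Ptgs2, Alox5, Hpgd and Ptger4. The AP-1 site, in 4.95% of all promoters, was in none of the 9 windows, and the TATA box, in 13.1%, was in that of Hpgd alone among the 9. That TATA box lay at 5 to 10 after the RefSeq start.

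**Figure D2:**
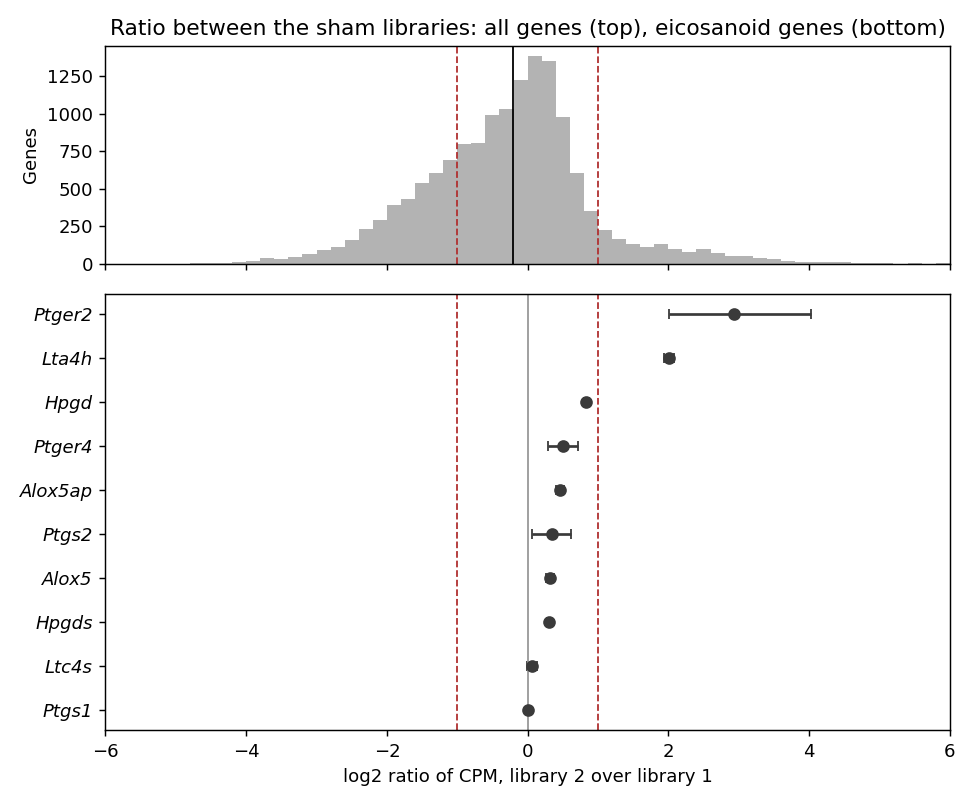
Log2 ratio of CPM, library 2 over library 1, for all 14673 genes that averaged 10 counts or more (top, as a histogram with its median of −0.21 as a solid line) and for the 10 genes (bottom, points with exact conditional 95% intervals for counting error). Dashed lines mark 2-fold. All 10 points lie above 0, and Lta4h at 2.00 and Ptger2 at 2.93 lie past 2-fold.

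Between the libraries, 2 of the 10 genes, Lta4h and Ptger2, were past 2-fold higher in library 2 and 0 were lower, where 9.51% of all 14673 genes were past that limit upward and 25.7% downward. A count of 2 in 10 is a description of these mice. The median log2 ratio of the 10 genes was 0.40, beside −0.21 over all genes, and their ratios lay between percentiles 59.2 and 98.4 of all genes. The median of the 10 microglia markers was 0.30, so an upward lean was not particular to the eicosanoid genes. Of those markers, 2 were past 2-fold lower in library 2 and 0 higher. Without Csf1r, their most abundant gene, the log2 ratio of the marker sum was 0.31 in place of −0.01. Of all genes, 41.3% had a log2 ratio above 0, and of the 10 genes 10 had. The intervals of Ptgs1 and Ltc4s included 0, and those of the other members lay above it. These intervals cover counting error only, and the share of all genes with an interval above 0 was not computed. The 10 genes summed to 2628 and 3416 CPM. Ptgs1 made up 46.9% of that sum in library 1 and 36.3% in library 2. TPM in place of CPM multiplies the ratio of every gene by the same 0.806, so on that scale the log2 ratios of 7 of the 10 lay above 0 and those of Ptgs1, Ltc4s and Hpgds below it. The median log2 ratio of TPM was −0.53 over the 14554 genes with a count in both libraries and a length, and all 10 genes lay above it. After adjustment of the log2 ratio for GC content and length, Alox5 was also past 2-fold at 1.06.

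Ordered by mean TPM, the 10 genes spanned 977-fold. Ptgs1 and Hpgd led, and their ranges over the libraries overlapped. They were followed by Alox5ap at 327 and 363 TPM (345 ± 25.4, SD, n = 2) and Ltc4s at 273 and 230.2 TPM (251 ± 30.2). Next came Hpgds at 219 ± 0.866 TPM and Alox5 at 101 and 102 TPM (101.6 ± 0.522). Lta4h stood at 37.4 and 121 TPM (79.1 ± 59.0), so each library alone lies over 1.5 times away from that mean. Alox5 and Lta4h overlapped and cannot be put in order from these libraries. Ptger4 at 4.67 and 5.30 TPM (4.98 ± 0.451), Ptgs2 at 4.21 ± 0.0612 TPM and Ptger2 at 0.234 and 1.44 TPM (0.836 ± 0.851) closed the order without overlap. The sequence of the middle genes depends on the length taken for each. With the longest transcript in place of merged exons, Hpgds came before Ltc4s, whose range overlapped those of Hpgds and Alox5ap, Lta4h came before Alox5, and Ptgs1 and Hpgd no longer overlapped.

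Some exons of the members overlap genes on the opposite strand, and whether reads were counted by strand is not given in the sources used here, so reads in those stretches cannot be told apart. The overlap was 148 bases for Ptgs1 with Gm43621 (38 and 41 counts), 189 bases for Alox5ap with Gm19719 (31 and 22 counts) and 268 bases for Ltc4s with Gm26542 (64 and 83 counts). Ptger2 overlapped Gm17173 by 246 bases, and that gene had 0 and 27 counts, the same direction as Ptger2. It also overlapped Gm49364 by 144 bases, with 0 counts in both libraries. Ptger4 overlapped the protein-coding gene Ttc33 by 82 bases, with 520 and 1543 counts, and Gm15937 by 1015 bases, with 0 counts in both. Ptgs2, Alox5, Hpgds, Hpgd and Lta4h had no exon overlap.

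Upstream of both branches, 10 of 13 genes of arachidonate release averaged 10 counts or more, and 3 of them were past 2-fold lower in library 2 and 0 higher, beside 25.7% and 9.51% of all genes, with a median log2 ratio of −0.19. Pla2g4a, the cytosolic phospholipase A2 that is selective for arachidonic acid, stood at 116 and 110.5 CPM. The hydrolases that free arachidonic acid from an endocannabinoid were counted in 3 forms, of which Abhd12 stood at 2030 and 1559 CPM. Mgll, monoacylglycerol lipase, stood at 80.1 and 86.9 CPM and Abhd6 at 79.9 and 103 CPM. Per length, Abhd12 at 2046 and 1265 TPM stood above Ptgs1 in both libraries. The diacylglycerol lipases that make that endocannabinoid moved unequally, with Daglb at 616 and 495 CPM, and Dagla at 43.1 and 4.18 CPM, a ratio of 0.0970 with an interval of 0.0820 to 0.114. Lpcat2, which returns fatty acids to lysophospholipids and makes platelet-activating factor, stood at 1381 and 1596 CPM. Acsl4, the acyl-CoA synthetase that prefers arachidonic acid, stood at 54.9 and 19.0 CPM, a ratio of 0.347 with an interval of 0.317 to 0.379. Pla2g6, a calcium-independent phospholipase A2, had 240 and 164 counts, a ratio of 0.388 with an interval of 0.316 to 0.476. The secreted phospholipase gene Pla2g2d, at 6.93 and 11.5 CPM, lay within 2-fold.

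Outside 5-lipoxygenase, 3 of 6 lipoxygenase genes averaged 10 counts or more, and 1 of them was past 2-fold higher in library 2 and 0 lower, beside 9.51% and 25.7% of all genes. Alox15, the 12/15-lipoxygenase of macrophages and eosinophils, had 138 and 640 counts, or 5.90 and 15.6 CPM, a ratio of 2.64 with an interval of 2.19 to 3.19. The eosinophil markers moved the same way, at 41.7 and 95.5 CPM as a sum, and 5 of the 6 were past 2-fold higher, beside the same 9.51%. The part of eosinophil RNA in the level of Alox15 was not tested. In that list Siglecf, a sialic acid receptor, stood at 36.3 and 41.8 CPM, the granule protein gene Prg2 at 1.24 and 36.9 CPM, and Epx, eosinophil peroxidase, at 0 and 101 counts. Per length, Alox5 stood at 14.8 times Alox15 in library 1 and at 7.02 times in library 2. Alox12, the platelet lipoxygenase, had 8 and 16 counts, and Alox12b had 0 counts in both libraries.

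Of 7 later leukotriene genes, 5 averaged 10 counts or more, 2 were past 2-fold higher in library 2 and 0 lower, beside 9.51% and 25.7% of all genes, with a median log2 ratio of 0.65. Mgst2, a microsomal glutathione transferase with leukotriene C4 synthase activity outside blood cells, had 30 and 1083 counts, a ratio of 20.5 with an interval of 14.3 to 30.6. Cyp4f18, the cytochrome P450 that inactivates leukotriene B4 in mouse neutrophils, stood at 36.9 and 118 CPM, a ratio of 3.20 with an interval of 2.98 to 3.45. Mgst3, a related transferase, stood at 20.4 and 23.9 CPM. Ggt5, the gamma-glutamyl transferase that converts leukotriene C4 to leukotriene D4, stood at 53.2 and 42.4 CPM. Dpep1, a dipeptidase that acts after it, had 0 counts in both libraries. Beside Mgst2, Ltc4s was nearly level between the libraries at 97.3 and 101.8 CPM.

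**Figure D3:**
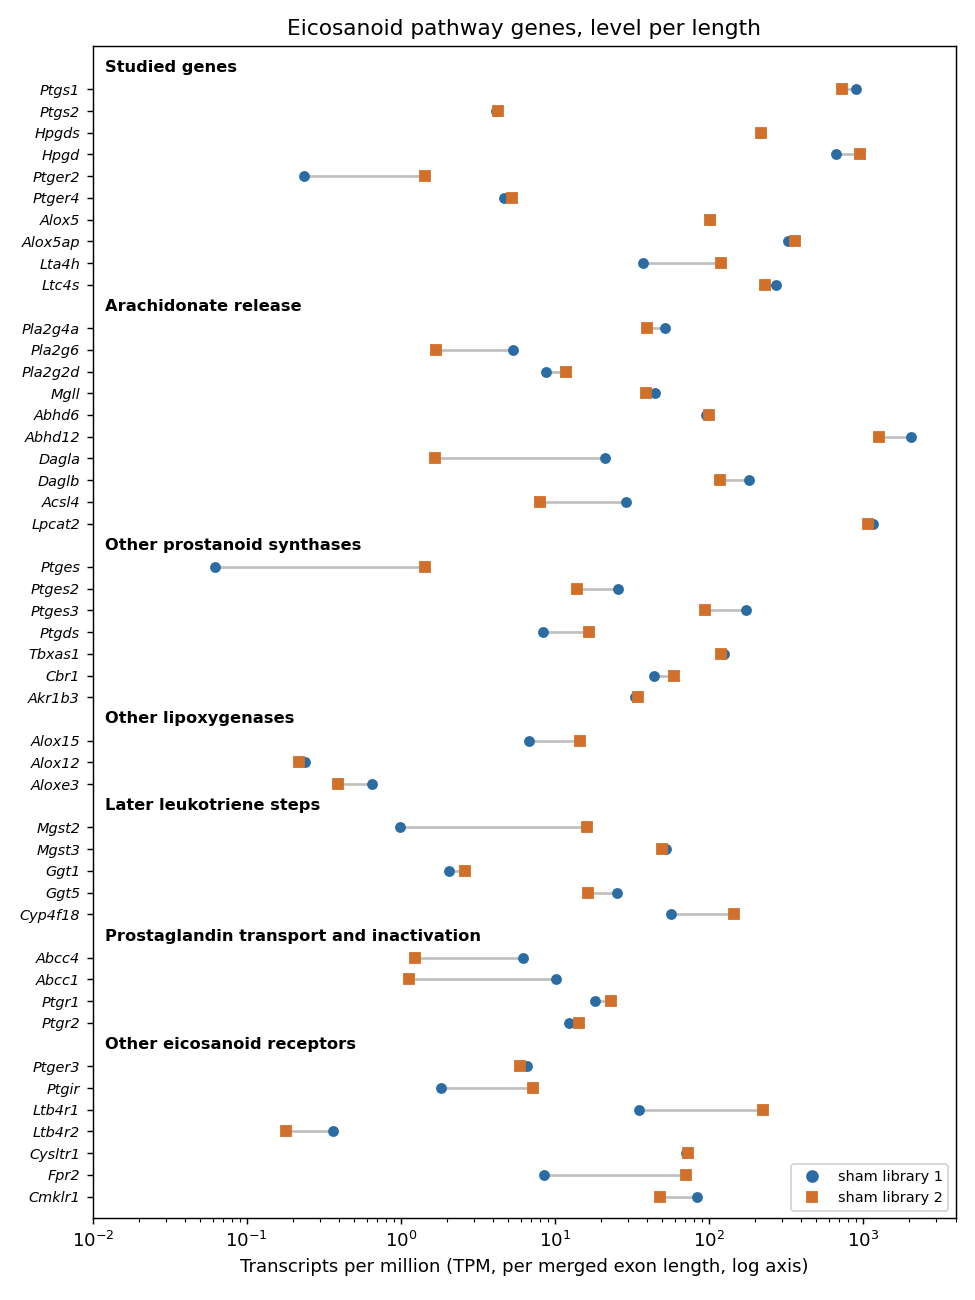
Level per length (TPM over merged exons, log axis) of the 10 genes and of the 36 other pathway genes that averaged 10 counts or more, grouped by step, with circles for sham library 1, squares for sham library 2 and a grey line between them. Abhd12, Lpcat2, Ptgs1 and Hpgd lie furthest right, and the widest gaps are those of Ptges, Mgst2, Dagla and Abcc1 among enzymes and transporters.

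Over all 53 pathway genes outside the 10, 36 averaged 10 counts or more, of which 8 were past 2-fold higher in library 2, 5 lower and 23 within 2-fold. Beside them stand 9.51% of all genes past 2-fold higher and 25.7% lower. Their median log2 ratio was 0.22. The 8 higher genes were Ptges, Ptgds, Alox15, Mgst2, Cyp4f18, Ptgir, Ltb4r1 and Fpr2, and the 5 lower ones were Pla2g6, Dagla, Acsl4, Abcc4 and Abcc1. The remaining 17 fell under the minimum, 5 of them with 0 counts in both libraries. With at least 10 counts required in both libraries, 7 pathway genes were past 2-fold higher and 5 lower, beside 5.74% and 25.9% of all genes. Ptges, with 2 counts in library 1, is not among those 7. These libraries are of 1 group, so no value here says how the genes respond to stroke.

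**Figure D4:**
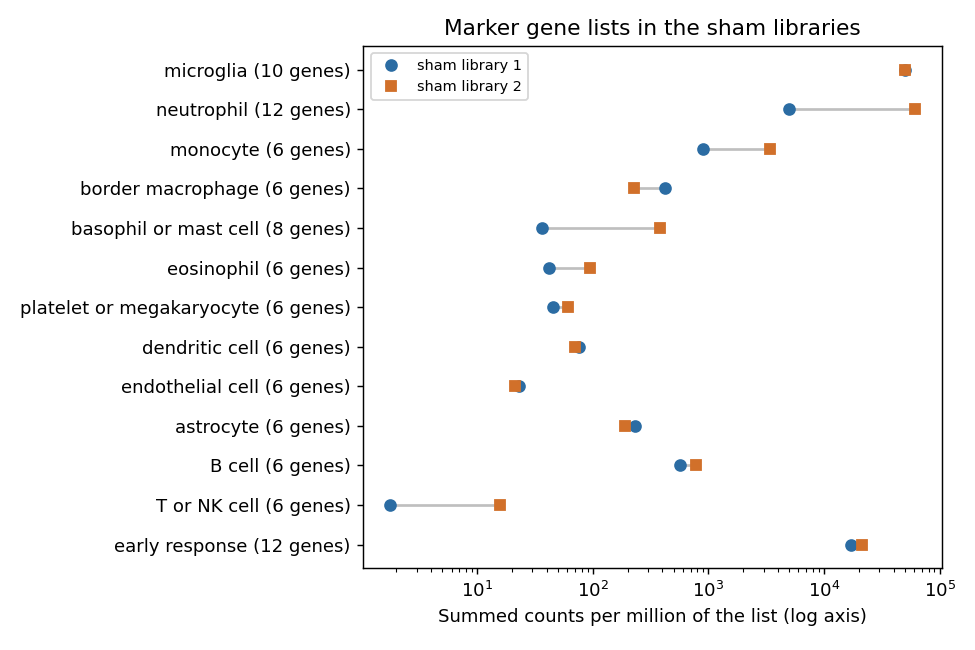
Summed CPM of each marker list (log axis), with circles for sham library 1, squares for sham library 2 and a grey line between them. The microglia sum was 50350 and 49889 CPM, while the neutrophil sum was 4994 and 61372 CPM and the basophil or mast cell sum 36.6 and 383 CPM.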

How the data were processed

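RNA was measured in 2 sham microglia samples (1 mouse each), grouped by their titles. cDNA was made with the SMART-Seq HT Kit, which starts at the poly(A) tail, and libraries with Nextera XT were sequenced in pairs. The authors checked reads with FastQC, used HISAT2 to place them on GRCm38, and took gene counts by Ensembl ID from HTSeq. These raw counts were deposited by the authors with no normalization. Versions, annotation and strand setting are not given in the sources used here. The authors' own comparison table was not used.

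Symbols and merged exon lengths came from GENCODE M21, which matched 53706 of 53801 genes, and the coordinates of all 10 members were equal in both. CPM is the count over all counts on genes times 1e+06, and TPM scales counts per merged exon length to the same sum. Gene ratios of library 2 over library 1 have exact conditional 95% intervals, single levels Wilson 95% intervals, and both cover counting error only. Genes averaging 10 counts or more were called where this ratio was past 2-fold in CPM. A library at 0 was read as at most 3 counts. For the 2-fold call, a count under 3 was set to 3, and such a ratio is a bound. No p-value was computed, since there is 1 group of 2 libraries. The biological coefficient of variation came from edgeR 4.0.16 (TMM, intercept only), and the ratio and dispersion steps were tested on simulated data. Python 3.11.15, numpy 2.4.6, scipy 1.17.1, pandas 2.3.3, matplotlib 3.10.9, R 4.3.3 and DESeq2 1.42.0 were used.

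The 10 members, the pathway lists and the marker lists were chosen with earlier results of these data known. Named besides the members are pathway genes with a mean of at least 10 CPM or past 2-fold, those at 0 in both libraries, the 2 highest genes of marker lists past 2-fold as a sum, and genes that overlap member exons. Pla2g2d, Ptgis, Alox12, Gp9, Gp6, Epx, Csf3r, F13a1, Ccr2, Plac8, Vcan, Mrc1, Ighm, Sall1, Csf1r, Cd3e, Trac, Cd3g, Ncr1 and the basophil or mast cell markers at 0 were added after their values were seen. Alternatives tried were scaling by TMM or DESeq2, totals without mitochondrial or neutrophil genes, a GC and length adjustment (10 bins each, at least 20 genes a bin), other count filters, a 1.5-fold limit, another gene length, marker lists without their highest gene and leaving out each library. Promoter sequences are RefSeq's.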

Additional observations from a re-analysis of the deposited data

How the results depend on the processing

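The members past 2-fold higher in library 2 numbered 2 or 3 under every alternative that kept this limit, and 0 were lower. The count was 3 with TMM, DESeq2 and the GC and length adjustment. At a 1.5-fold limit 3 members were higher and 0 lower, beside 16.6% and 37.0% of all genes. All 10 log2 ratios stayed above 0 and above the median of all genes with CPM, TMM, DESeq2, both other totals and the adjustment, and with TPM 7 stayed above 0 and all 10 above its median of −0.53. The members' median log2 ratio of 0.40 became 0.65 with TMM, 0.68 with DESeq2, 0.49 without neutrophil genes in the total and 0.47 with the GC and length adjustment. The pathway median of 0.22 became 0.47 with TMM, 0.49 with DESeq2, 0.21 without mitochondrial genes, 0.30 without neutrophil genes, 0.52 with the adjustment and 0.24 with no filter. With no filter, which lets in genes of few counts, the pathway genes past 2-fold higher went from 8 to 13 and those lower from 5 to 7. Beside them stood 8.75% and 26.2% of all genes. TMM and DESeq2 moved the median of all genes from −0.21 to 0.04 and 0.06, which accounts for their shift by construction. Totals without mitochondrial or neutrophil genes likewise shift every ratio equally. With TMM, 12.8% of all genes were past 2-fold higher and 19.9% lower, with DESeq2 13.3% and 19.2%, and with the adjustment 12.7% and 14.1%. The coefficient of variation was 0.477 with DESeq2 scaling and 0.550 with no filter. No value changed sign among those called. With the settings that leave out a library set aside, 94 mean levels of single genes and lists stayed within 1 SD of the libraries and 21 did not, and 43 log2 ratios stayed within their counting interval and 72 did not. No paired analysis was possible because both libraries belong to 1 group. Leaving out a library always leaves a value within 1 SD of a mean of 2, so it says nothing on stability. With 2 libraries, every mean rests on 2 mice, and genes such as Ptger2 rest on 10 counts in library 1.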

Other observations

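Other cell types than neutrophils left smaller or less even traces. The monocyte sum was 901 and 3402 CPM (library 1, then library 2). Without Chil3, its most abundant gene, the log2 ratio of the sum was 0.17 in place of 1.92, and the median over the 6 genes was 0.03. In that list Chil3, a chitinase-like protein gene, stood at 455 and 2901 CPM and Ly6c2, a monocyte surface antigen gene, at 90.3 and 302 CPM, while F13a1, coagulation factor XIII, stood at 225 and 64.7 CPM. Plac8 stood at 63.7 and 56.7 CPM and Vcan at 2.48 and 1.56 CPM. Ccr2, the chemokine receptor by which monocytes enter tissue, stood at 65.1 and 76.3 CPM. The border macrophage sum went the other way, with 422 and 226 CPM, and its gene Mrc1, the mannose receptor, stood at 190 and 42.7 CPM. The T or NK cell sum was 1.75 and 15.8 CPM, of which Nkg7, a cytotoxic granule gene, made up 1.58 and 12.8 CPM and Cd3d 0.128 and 2.65 CPM. The rest of that list was near the floor, with Cd3e at 0 counts in both libraries, Trac at 1 and 0, Cd3g at 0 and 7, and Ncr1 at 0 and 5. The B cell sum was 569.9 and 778 CPM, most of it Ighm. The dendritic cell sum was 75.7 and 70.4 CPM, the astrocyte sum 232 and 190.2 CPM, and the endothelial sum 23.1 and 21.05 CPM. Of the 10 microglia markers, Sall1 at 337 and 146 CPM and Csf1r at 14910 and 5934 CPM were past 2-fold lower in library 2 on the scale of CPM, and 0 were past 2-fold higher, beside 25.7% and 9.51% of all genes.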
